A study of Mus musculus with 2 samples.

Results

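NF-κB is a family of dimeric transcription factors that T cells use to turn antigen receptor and cytokine signals into gene expression. The 10 genes described here are its 5 subunits (Nfkb1, Nfkb2, Rel, Rela and Relb) and 5 of its inhibitors (Nfkbia, Nfkbib, Nfkbie, Nfkbiz and Tnfaip3). They were chosen by symbol from the 24421 genes listed in each deposited table, and all 10 were found in both. Each was well expressed, meaning here a deposited value of 8 or more on the log2 scale in both libraries, as were 8886 of the listed genes.

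RNA was sequenced from Th1 cells, which are CD4 T cells skewed in culture toward IFNγ production. The library labelled WT came from Chi3l1+/+ mice and the library labelled Chi3l1 KO from Chi3l1-/- mice, both of the C57BL/6J background and with no treatment that separates them (n = 1 each). The KO is germline, so the disruption was not limited to T cells. Naïve CD4 T cells were activated through CD3 and CD28 with IL-12, IL-2 and an antibody against IL-4, and all of this was shared by both genotypes. The study used young adult mice of both sexes, and the sources used here do not give the sex, the number of pooled mice or the culture time of the sequenced cells.

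With 1 library per genotype, no difference below has a replicate check and no test was made. Chi3l1 itself, listed as Chil1, went against the labels, with 1 rebuilt read in the library labelled WT and 103 in the library labelled Chi3l1 KO. Every direction below therefore rests on the labels as given. Read counts rebuilt from the deposited values summed to 70784577 in the library labelled WT and 63122181 in the library labelled Chi3l1 KO. Of the 8 T cell markers examined, among them Cd3e, Cd4 and Lck, all had a log2 value of 11.9 or more in both libraries. The 5 Th1 markers ranged from 6.82 to 14.3 and did not move together, with log2 differences (KO minus WT) of 1.32 for Ifng, 0.45 for Il12rb2, -0.27 for Tbx21, -1.23 for Cxcr3 and -1.36 for Ccl5.

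In resting cells, NF-κB dimers are held in the cytoplasm by IκB proteins. In the canonical pathway the IKK kinases mark IκB for degradation, and dimers of p50 (made from Nfkb1) with RelA or c-Rel enter the nucleus. In the non-canonical pathway the kinase NIK leads to processing of p100, the product of Nfkb2, into p52, which pairs with RelB. Several inhibitor genes, Nfkbia and Tnfaip3 among them, are themselves NF-κB targets and form negative feedback loops.

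The promoters of the members were examined for the κB site, the DNA element that NF-κB dimers bind. RefSeq promoters (GRCm38.p6, 250 bases before to 50 after each start) were at hand for 7 of the 10 members, namely Nfkb2, Rel, Rela, Nfkbia, Nfkbib, Nfkbie and Tnfaip3. The κB consensus, a motif of 10 bases, matched on either strand in 5 of these 7 genes. Over all 27025 genes with a promoter, 5.14% had a match. Rela and Nfkbib were the members with a promoter and without a match. The matches before the outermost RefSeq start of each gene are shown because they mark which members carry the element, with the matched bases in capitals and all sequences written 5′ to 3′ on the strand of the gene.
Nfkbia, chr12:55492648-55492716, minus strand: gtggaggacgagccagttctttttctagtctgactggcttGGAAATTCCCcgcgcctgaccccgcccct
Rel, chr11:23771011-23771101, minus strand: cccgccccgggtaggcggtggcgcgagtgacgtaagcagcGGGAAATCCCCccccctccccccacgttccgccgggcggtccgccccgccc
Nfkbie, chr17:45555554-45555643, plus strand: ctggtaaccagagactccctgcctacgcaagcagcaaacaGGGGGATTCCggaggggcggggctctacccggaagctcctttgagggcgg
Tnfaip3, chr10:19015517-19015544, minus strand: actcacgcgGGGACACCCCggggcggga
Tnfaip3, chr10:19015411-19015462, minus strand: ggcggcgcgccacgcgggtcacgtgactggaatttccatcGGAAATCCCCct
Nfkb2, chr19:46304689-46304717, plus strand: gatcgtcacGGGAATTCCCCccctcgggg
Nfkb2, chr19:46304717-46304736, plus strand: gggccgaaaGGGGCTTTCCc
By the GENCODE annotation, the Nfkb2 stretches lay within an exon of the gene and the Tnfaip3 stretches within an intron, and the other 3 held no annotated exon. In Nfkbia the match lay 29 to 20 bases before the start and read on the opposite strand. The Tnfaip3 match nearer the start also read on the opposite strand. In Rel, and in the outer of the Nfkb2 matches, overlapping matches on both strands merged into 11 bases. A match of letters does not show that a factor binds, and these libraries hold no binding data.

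Nfkb2 encodes p100 and p52 (chromosome 19, 46304320 to 46312385, plus strand, GRCm38). Its log2 value was 15.75 in the library labelled WT and 15.40 in the library labelled Chi3l1 KO. Nfkb1, the gene of p105 and p50 (chromosome 3, 135584655 to 135691547, minus strand), had log2 values of 14.51 and 14.39 in the same order. Both genes were thus lower in the library labelled Chi3l1 KO, Nfkb2 by 0.35 and Nfkb1 by 0.12 on the log2 scale.

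Rela, the gene of RelA or p65, the main transactivating partner of p50 (chromosome 19, 5637483 to 5648130, plus strand), had log2 values of 14.20 and 13.78. Relb, the partner of p52 in the non-canonical pathway (chromosome 7, 19606217 to 19629438, minus strand), had 13.12 and 12.52. Rel, the gene of c-Rel, which drives Il2 and other activation genes in T cells (chromosome 11, 23736847 to 23770970, minus strand), had 9.48 and 9.69. Rela and Relb were lower in the library labelled Chi3l1 KO and Rel was higher, so the subunits did not move as one.

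Of the inhibitors, Nfkbia, Nfkbib and Nfkbie encode the classical cytoplasmic inhibitors IκBα, IκBβ and IκBε. Nfkbia (chromosome 12, 55489410 to 55492647, minus strand) had log2 values of 13.27 in the library labelled WT and 13.15 in the library labelled Chi3l1 KO. Nfkbib (chromosome 7, 28758251 to 28767512, minus strand) had 13.27 and 13.14. Nfkbie (chromosome 17, 45555703 to 45563169, plus strand) had 12.78 and 12.49. All 3 were lower in the library labelled Chi3l1 KO, Nfkbie by the most.

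Nfkbiz encodes IκBζ, an atypical member of the IκB family that acts in the nucleus and can activate as well as inhibit (chromosome 16, 55811375 to 55838899, minus strand). Its log2 values were 11.21 and 11.18. Tnfaip3 encodes A20, a ubiquitin-editing enzyme that shuts down signalling upstream of IKK (chromosome 10, 19000910 to 19015657, minus strand), and had 12.63 and 12.78. Nfkbiz was thus nearly level between the libraries and Tnfaip3 was the 1 inhibitor that was higher in the library labelled Chi3l1 KO.

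**Figure D1:**
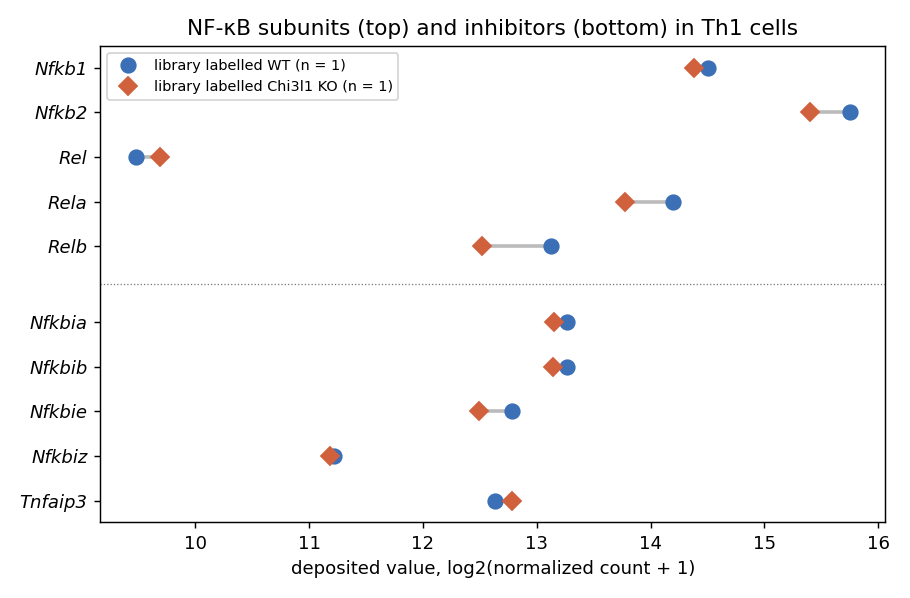
Deposited values of the 10 members on the log2 scale (x axis, log2 of normalized count plus 1) in the library labelled WT (circles) and the library labelled Chi3l1 KO (diamonds), n = 1 each, joined by a grey line per gene. The diamond lies to the left of the circle for 8 of the 10 genes and to the right for Rel and Tnfaip3.

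Levels were compared between genes per kilobase of the longest annotated transcript, as normalized counts per kilobase. Nfkb2 had 14329 in the library labelled WT and 11242 in the library labelled Chi3l1 KO, which was 32.1% and 30.2% of the summed level of the 10 genes. Rela had 6915 and 5172 normalized counts per kilobase. Nfkbia, its best known inhibitor, had 6255 and 5759.6. The ratio of Nfkbia to Rela was 0.905 and 1.11. With the median length of all annotated transcripts the ratio was 0.363 and 0.446. Which of the genes was higher thus depended on the transcript length in the library labelled Chi3l1 KO, while Rela was higher by both lengths in the library labelled WT.

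Rel was the lowest member by this measure, with 95.4 and 111 normalized counts per kilobase. The level of Rela was 72.5 times that of Rel in the library labelled WT and 46.7 times in the library labelled Chi3l1 KO, and 251 and 161 times with the median length. Nfkbiz, at 577 and 565, was the next lowest. Among the 8579 well expressed genes that have an annotated transcript, 6.06% had a level per kilobase at or below that of Rel in the library labelled WT, and 96.3% had one at or below that of Nfkb2.

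From the highest to the lowest level per kilobase in the library labelled WT, the order was Nfkb2, Rela, Nfkbia, Nfkb1, Nfkbib, Relb, Nfkbie, Tnfaip3, Nfkbiz and Rel. In the library labelled Chi3l1 KO, Rela and Nfkbia changed places, as did Relb and Nfkbie. With the median length neither pair changed places, and Tnfaip3 instead went from the eighth to the sixth place. Neighbours in this order have no spread between samples to be set against. Together the 5 subunits made up 66.5% of the summed level per kilobase in the library labelled WT and 63.1% in the library labelled Chi3l1 KO. The ratio of Nfkb2 to Nfkb1 went from 2.56 to 2.18 and that of Relb to Rela from 0.394 to 0.346. With the median length these were 2.25 and 1.92 for Nfkb2 to Nfkb1, and 0.170 and 0.149 for Relb to Rela. The shifts of these ratios between the libraries also depended on the GC content of the transcripts, as given below. The order of the 2 highest members also depended on the length. With the median length, Rela had 23893 and Nfkb2 18950.5 normalized counts per kilobase in the library labelled WT. The median length of Rela was 0.786 kilobases against 2.716 for its longest transcript, while Rel had 7.466 by both.

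**Figure D2:**
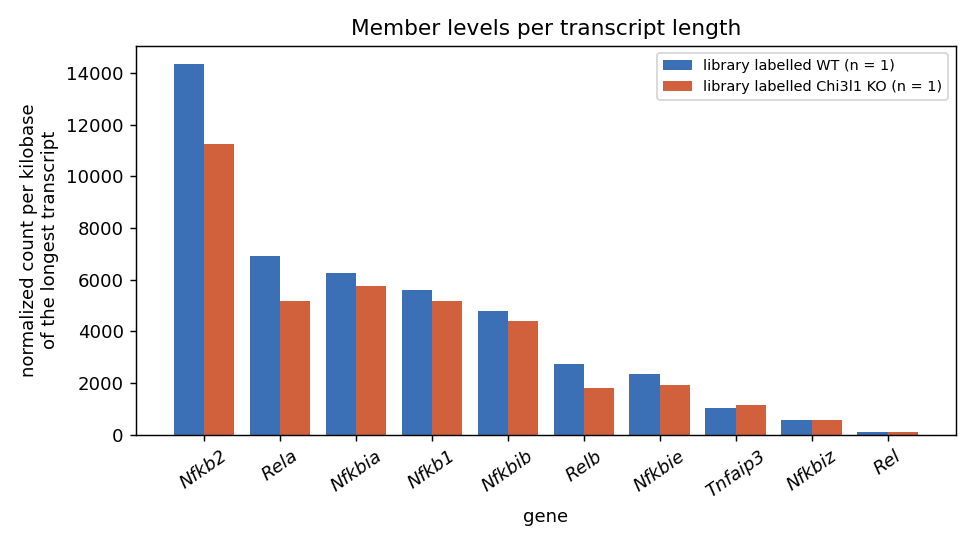
Normalized counts per kilobase of the longest annotated transcript (y axis, linear) for each member in the library labelled WT (blue bars) and the library labelled Chi3l1 KO (orange bars), n = 1 each, with no error bars because there are no replicates. Nfkb2 stands highest, at 14329 and 11242, and Rel lowest, at 95.4 and 111.

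To ask whether the members differed between genotypes, the value in the library labelled WT was subtracted from that in the library labelled Chi3l1 KO. The largest difference was that of Relb, which was lower by 1.52-fold, with a log2 difference of -0.61 from 9224 and 6073 rebuilt reads. Its 95% exact binomial interval for read counting alone was -0.65 to -0.56, which reached both sides of 1.5-fold. Relb was the 1 member past 1.5-fold, and 0 of the 10 were past 2-fold. Among all listed genes, 21.0% were past 1.5-fold and 10.5% past 2-fold in either direction. Among the 8886 well expressed genes, which include every member, the shares were 10.2% and 1.20%. The count of 1 in 10 members past 1.5-fold is close to the share among these well expressed genes.

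The other subunits differed by less. Rela was 1.34-fold lower in the library labelled Chi3l1 KO, a log2 difference of -0.42 (95% counting interval -0.45 to -0.39, exact binomial). Nfkb2 was 1.27-fold lower, with -0.35 (-0.37 to -0.33), and Nfkb1 1.09-fold lower, with -0.12 (-0.15 to -0.09). Rel was 1.16-fold higher, with 0.22 (0.07 to 0.36) from 736 and 857 rebuilt reads, the fewest of any member. Differences at least as large as that of Rela in either direction were seen in 23.3% of the 8886 well expressed genes, and as that of Relb in 9.15%.

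Among the inhibitors, Nfkbie was 1.22-fold lower in the library labelled Chi3l1 KO, a log2 difference of -0.29 (95% counting interval -0.34 to -0.24, exact binomial). Nfkbia had -0.12 (-0.16 to -0.08) and Nfkbib had -0.13 (-0.17 to -0.09). Tnfaip3 was 1.11-fold higher, with 0.15 (0.10 to 0.20). The counting interval of Nfkbiz, at -0.03, ran from -0.11 to 0.05 and so held 0. These intervals leave out the variation between mice, cultures and library preparations, which may be larger.

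In all, 8 of the 10 members were lower and 2 were higher in the library labelled Chi3l1 KO. Of the 8886 well expressed genes, 4548 were lower and 4333 higher. The median log2 difference was -0.35 for the subunits, -0.12 for the inhibitors and -0.12 for all 10, against -0.01 for the well expressed genes. In these bulk cultures, fewer cells that express a gene and less RNA per cell cannot be told apart.

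**Figure D3:**
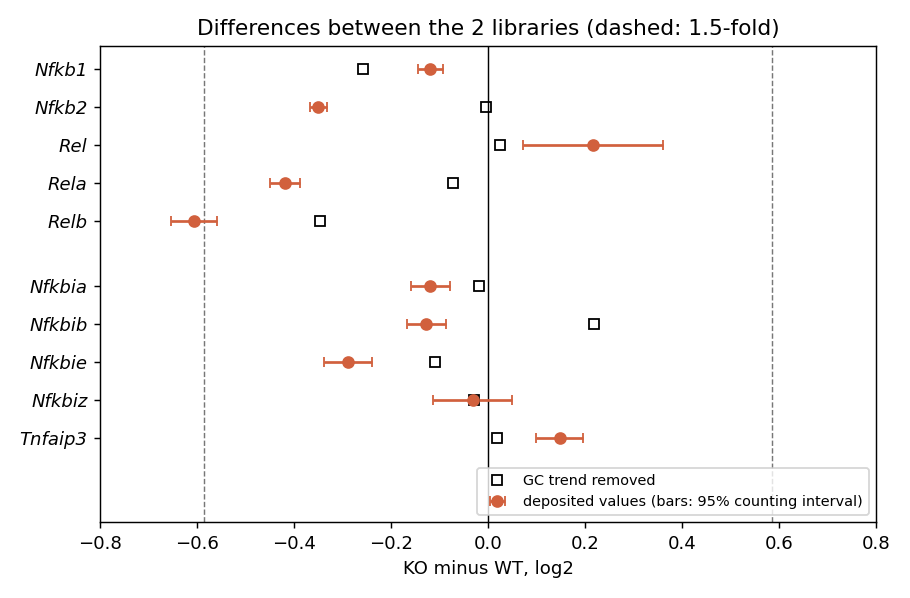
Difference of the deposited values, KO minus WT on the log2 scale (x axis), for each member (filled circles, n = 1 library per genotype), with bars for the 95% exact binomial interval of read counting alone and open squares for the same difference with the trend with GC content removed. The circle of Relb, at -0.61, is the 1 past the dashed 1.5-fold line, and the open squares lie between -0.35 and 0.22.

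The differences of the members varied with the GC content of their transcripts. Nfkb2, Rela and Nfkbib had the most GC-rich transcripts of the 10, at 59.4%, 59.4% and 58.8% GC, and Rel, Nfkb1 and Tnfaip3 the least, at 42.5%, 44.9% and 47.1%. Across the 10 members, the Spearman correlation of the difference with GC content was -0.839. Across 8579 well expressed genes it was -0.525. Both are descriptions across genes of the same 2 libraries, and genes are not independent replicates. The median difference in 20 bins of GC content went from 0.23 in the bin with the least GC to -0.45 in the bin with the most.

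When the median of its GC bin was subtracted from each gene, the difference of Nfkb2 went from -0.35 to -0.004 on the log2 scale and that of Rela from -0.42 to -0.07. Relb kept the lowest value, at -0.35, which left it 1.27-fold lower and no longer past 1.5-fold. On this scale 6.04% of 8579 well expressed genes were past it in either direction. Of these genes, 22.8% had a difference at least as large as that of Relb in either direction. Nfkb1, with an AT-rich transcript, moved the other way, from -0.12 to -0.26. Rel had 0.03 and Tnfaip3 0.02, so the members that were higher in the deposited values were close to level.

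Among the inhibitors, Nfkbib changed direction when the trend was removed, from -0.13 to 0.22 on the log2 scale. Nfkbia had -0.02, Nfkbiz -0.03 and Nfkbie -0.11. The median over the 10 members was then -0.02, with 7 lower and 3 higher, and that of the subunits was -0.07. Ratios between members changed as well when the trend was removed. The KO minus WT difference of the log2 ratio of Nfkb2 to Nfkb1 went from -0.231 to 0.254. For Relb to Rela it went from -0.187 to -0.274, for Rel to Rela from 0.635 to 0.098, and for Nfkbia to Rela from 0.3 to 0.055. The part of the GC trend that comes from the libraries and the part that comes from the cells cannot be told apart with 1 library per genotype.

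**Figure D4:**
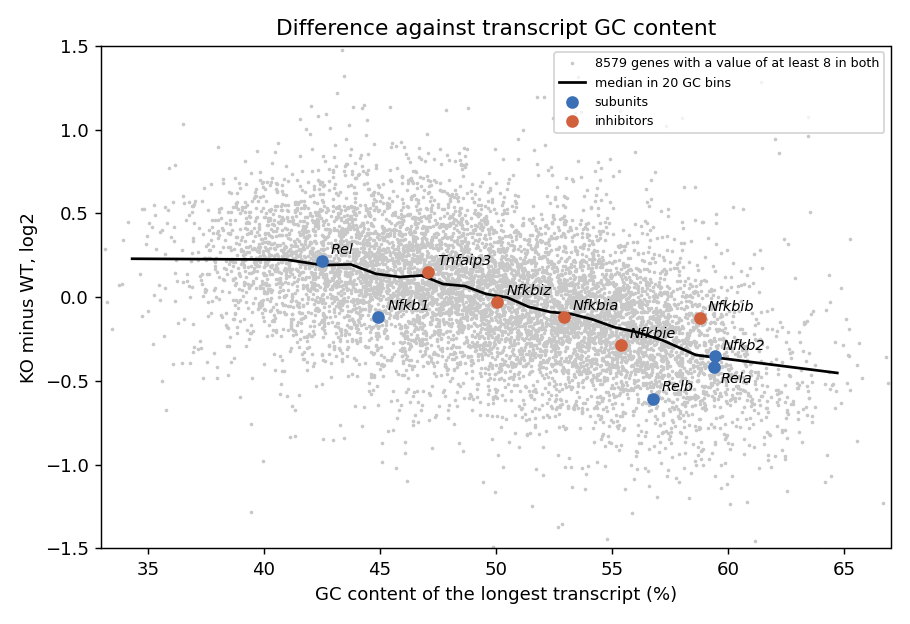
Difference between the libraries (y axis, KO minus WT, log2) against the GC content of the longest annotated transcript (x axis, percent) for 8579 well expressed genes (grey, of which 28 lie outside the axis ranges), with subunits in blue, inhibitors in orange and the median in 20 GC bins as a black line. Most members lie close to the line, with Relb and Nfkb1 below it by 0.35 and 0.26 and Nfkbib above it by 0.22.

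Reads of some members can be shared with other genes. Exons of Psd, on the opposite strand, overlap 6.52% of the exon bases of Nfkb2, and those of Sirt2 overlap 1.94% of Nfkbib. The noncoding AC114539.1 overlaps 11.6% of the exon bases of Nfkb2 and Ccer2 overlaps 14.5% of those of Nfkbib, also on the opposite strand. No value was found under the symbols AC114539.1 and Ccer2 in the deposited data. Whether reads were counted by strand is not given in the sources used here, so the values of Nfkb2 and Nfkbib carry that uncertainty. Psd had log2 values of 10.7 and 10.4 and Sirt2 of 14.9 and 14.7. Of the runs of 50 bases in the longest transcript of Nfkb1, 1.10% also occur in transcripts of other genes, and 0.121% of those of Rel. No such run was found for the other 8 members in the annotated transcripts.

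The other genes of the pathway give the setting of these differences. Of 62 further genes in 8 lists, 3 were past 1.5-fold lower and 8 past 1.5-fold higher in the library labelled Chi3l1 KO, with a median log2 difference of -0.01. Of the 62, 58 were well expressed, and 2 of these were past 1.5-fold lower and 5 higher, or 3.45% and 8.62%. Of all well expressed genes, 6.29% were past 1.5-fold lower and 3.95% higher. The 4 pathway genes that were not well expressed, Csf2, Ltbr, Tnip2 and Tnip3, were all past 1.5-fold. The shares above leave such genes out, and 29.6% of genes that reached 1 on the log2 scale in either library were past 1.5-fold. Of the other IκB family genes, Bcl3 had -0.33 and Nfkbid -0.18, and both were positive, at 0.12 and 0.08, with the GC trend removed. Of the 6 IKK and related kinases, 0 were past 1.5-fold, with Chuk, the gene of IKKα, the highest at 0.57 and Ikbke the lowest at -0.37. Of 8 genes between the antigen receptor and IKK, 0 were past 1.5-fold, from Map3k7 at 0.34 to Tab1 at -0.30. With the GC trend removed, Map3k7 had 0.2 and Tab1 0.04.

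Among 8 TRAF, cIAP and RIP adaptors, the genes of the ubiquitin ligases cIAP1 and cIAP2, which hold NIK in check, were past 1.5-fold. Birc2 went from a log2 value of 10.13 to 11.04, a difference of 0.91, and Birc3 from 10.83 to 11.49, a difference of 0.65. With the GC trend removed, Birc2 had 0.72 and Birc3 0.53, so that Birc3 was no longer past 1.5-fold. Traf1 had the lowest difference of that list, at -0.45, and Traf5 went from -0.38 to -0.60 when the trend was removed. The 3 genes of the linear ubiquitin ligase had from -0.26 for Sharpin to -0.15 for Rbck1. With the GC trend removed, Sharpin had -0.08 and Rbck1 0.31. Beside Tnfaip3, 2 of the 10 ubiquitin editors and RNA regulators were past 1.5-fold, as were 21.0% of all listed genes. Tnip3 went from 60 to 235 rebuilt reads, a difference of 1.94 (95% counting interval 1.55 to 2.40, exact binomial). Tnip2 had 0.67 (0.42 to 0.93) from 209 and 334 rebuilt reads. Tnip1, at -0.39, was the lowest of this list, and had -0.04 with the GC trend removed.

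Of 7 TNF family receptors, Ltbr, which signals to the non-canonical pathway, was past 1.5-fold, with 53 and 12 rebuilt reads and a log2 difference of -2.06 (95% counting interval -3.19 to -1.22, exact binomial). Tnfrsf1a had -0.52 and Tnfrsf9 0.43. Of 18 NF-κB target genes outside the members, 2 were past 1.5-fold lower and 4 higher. Over all well expressed genes the shares were 6.29% and 3.95%. Of the 18 targets, 17 were well expressed. Csf2 was not, with 84 and 127 rebuilt reads (95% counting interval 0.18 to 1.01, exact binomial). Ltb, which encodes lymphotoxin β, and Ier3 both had -0.63. Gadd45b had 0.75, Cd83 0.73, Cflar 0.68 and Csf2 0.59. With the GC trend removed, 0 targets were past 1.5-fold lower and 2 higher, Gadd45b and Cd83, while Ltb had -0.18, Ier3 -0.50, Cflar 0.54 and Csf2 0.45. The median of the targets was 0.10, with 10 above 0 and 8 below.

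**Figure D5:**
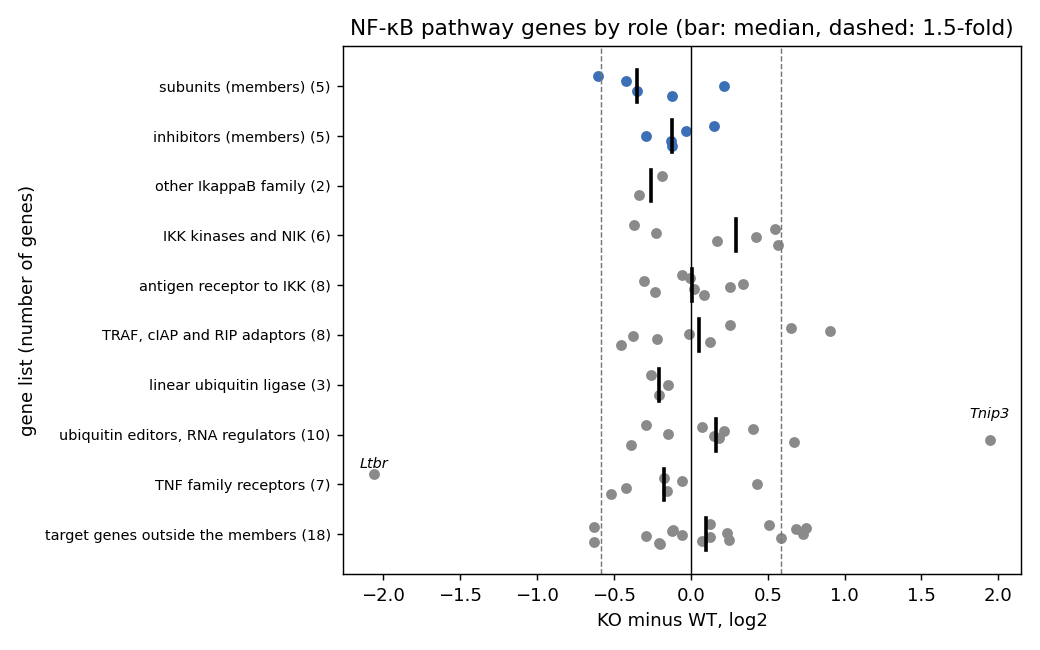
Difference between the libraries (x axis, KO minus WT, log2) for members (blue) and the other genes of the pathway (grey), in rows by role with the number of genes in brackets, a black bar for the median of each list and dashed lines at 1.5-fold (n = 1 library per genotype). Tnip3, at 1.94, and Ltbr, at -2.06, stand outside the range from -0.63 to 0.91 that holds all other genes.

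Genes of other cell types were also measured, because B cells, macrophages and dendritic cells express NF-κB genes too. The 4 B cell markers reported here were all higher in the library labelled Chi3l1 KO, with log2 differences of 0.27 to 0.96 and a summed normalized count of 670 in the library labelled WT and 1061 in the library labelled Chi3l1 KO. Dendritic cell markers summed to 73.6 and 122, with Clec9a and Siglech at 0 in both, and macrophage and monocyte markers to 532 and 461, with Adgre1 at 0 in both. Neutrophil markers summed to 58.0 and 4.79, CD8 T cell markers to 812 and 807, NK cell markers to 16.4 and 14.4 and erythroid markers to 22.2 and 33.8. Some of these sums hold markers that moved in opposite directions. Cd8a had a log2 difference of 0.60 and Cd8b1 of -0.47. Of the dendritic cell markers 1 was lower and 3 were higher, and of the macrophage and monocyte markers 4 were lower and 2 higher. The NK cell and erythroid markers each had 1 lower and 1 higher. For comparison, the T cell markers summed to 211493 and 193950. The part of these cells in the differences of the members was not tested.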

How the data were processed

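Th1 cells of 2 mouse genotypes were sequenced, with 1 library each, from polyadenylated RNA prepared with a SENSE mRNA-Seq kit. The authors mapped the paired reads with TopHat to mm10, took counts from unique and multiple alignments into edgeR, run in R with Bioconductor, and applied a global normalization. Versions of TopHat and edgeR and the annotation are not given in the sources used here. The deposited tables hold 1 value per gene symbol, which were read as normalized counts on the log2 scale with 1 added before the log, since no header names the unit. With the log undone, 100% of the low values lay within 0.15 of a whole multiple of 0.967 (library labelled WT) or 0.965 (library labelled Chi3l1 KO), the worth of 1 read. Reads rebuilt with these steps are approximate, and their intervals cover counting error only. Mate pairs and multiple alignments may make reads less independent than assumed.

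Differences are KO minus WT of the deposited values, with exact binomial (Clopper-Pearson) 95% intervals. No test between genotypes was made. Thresholds were 2-fold and 1.5-fold, and well expressed genes had log2 values of 8 or more in both libraries. Transcript length, GC content and gene coordinates came from GENCODE M21 (GRCm38), the assembly of mm10, which gave a transcript for 96.5% of the well expressed genes. Promoters came from RefSeq (GRCm38.p6) and were searched on both strands for the κB consensus. Named genes were the members, and from every other pathway list those past 1.5-fold and the highest and lowest difference among genes that reached 8 on the log2 scale in either library. The members and the gene lists were chosen with earlier results of these data known. A gene of the marker lists is not reported here and was left out of its list's counts and sums. Alternatives were a pseudocount of 0.1, scaling by the median ratio or to Actb, quantile normalization, removal of the GC trend, filters on low values, another transcript length and 1 mismatch in the motif. Scripts were tested on simulated data. The software was scipy 1.17.1, numpy 2.4.6, matplotlib 3.10.9 and pandas 2.3.3 under Python 3.11.15.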

Additional observations from a re-analysis of the deposited data

How the results depend on the processing

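No paired analysis was possible because each genotype has 1 library. The pseudocount of 0.1 and median-ratio scaling moved none of the 33 named genes beyond its counting interval. By the same measure, quantile normalization moved 14 of the 33, scaling to Actb 25 and removal of the GC trend 26. Quantile normalization, scaling to Actb and removal of the GC trend each left 0 members past 1.5-fold, with Relb at -0.51, -0.49 and -0.35 on the log2 scale. In that order, the median difference of the 10 members was -0.0414, -0.00701 and -0.024, that of the subunits -0.168, -0.234 and -0.073, and that of the inhibitors -0.039, -0.00301 and -0.018. Each of these 3 settings left 7 members lower, and the member that changed sign was Nfkb1, Nfkbiz and Nfkbib in turn. Scaling to Actb put the median of all well expressed genes at 0.10 in place of -0.01. No setting put a member past 2-fold. Among the other pathway genes, Birc2 came past 2-fold with scaling to Actb, at 1.02, and Gadd45b with the GC trend removed, at 1.007. With the GC trend removed, 7 of the other 62 pathway genes were past 1.5-fold in place of 11, of which 6 were among the 11 and Traf5 was added. The ratio of the highest to the lowest member level per kilobase was 150.2 with the longest transcript and 250.5 with the median length, by construction of the lengths. With 1 mismatch allowed, all 7 promoters matched the κB motif, as did 48.6% of all genes with a promoter. Of genes that reached 1 on the log2 scale in either library, 16.5% were past 2-fold and 29.6% past 1.5-fold. The cause of the other shifts was not tested. The members had at least 736 rebuilt reads each. Counting alone still left Relb on both sides of 1.5-fold and Nfkbiz on both sides of 0. With 1 library per genotype, the variation between mice, cultures and library preparations was not measured.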
